A study of Mus musculus with 20 samples.

Results

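Mouse kidney cells that carry Sca-1 on their surface were kept for 7 days in culture with roxadustat or without it, and their messenger RNA was sequenced in 4 roxadustat and 4 control libraries. These are the 8 of the 20 libraries of the series whose labels give a culture time of 7 days, and each gene was set between them. The other 12 libraries, fresh cells and cells of day 21, served the shared estimate of the spread and the tests of whether the effect of the drug differed between times. Cells were sorted with magnetic beads against Sca-1 from digested kidneys, are called mesenchymal stem cell-like in the labels, and grew in a medium for mesenchymal stem cells with fetal calf serum and antibiotics at 37 °C, 5% CO2 and 20% O2, conditions that both groups share. The design text of the series has roxadustat added to the cultures, while the single treatment text of all samples has mice injected with it (33 mg/kg into the peritoneum for 7 days). Whether roxadustat cells in culture also stem from injected mice is not stated in the labels, nor are genotype, strain, age or sex. They also do not say whether the 4 libraries of a group are separate animals or separate dishes. The p-values of genes thus rest on a spread between libraries, estimated over all 20, which may be technical. The surface sort is the only selection described, so other kidney cells that carry Sca-1 or escape the sort can be present.

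Hypoxia-inducible factors (HIF) are pairs of an oxygen-regulated alpha subunit, HIF-1α (gene Hif1a) or HIF-2α (Epas1), and a stable partner, ARNT. In the presence of oxygen, prolyl hydroxylases (Egln1, Egln2, Egln3) mark the alpha subunit, the von Hippel-Lindau protein (Vhl) binds the mark, and the protein is destroyed. Roxadustat occupies the 2-oxoglutarate site of the prolyl hydroxylases, so HIF-α accumulates although oxygen is present and binds short promoter and enhancer elements with the core ACGTG or GCGTG. The known targets of HIF carry glucose uptake, glycolysis, mitochondrial turnover, vessel growth, iron handling and, in interstitial kidney cells, erythropoietin.

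Each library held 16730240 to 19903160 counts with roxadustat and 14632777 to 17694626 counts in control cells. Values below are CPM, counts scaled to a common library total, adjusted by TMM, a factor that sets the bulk of genes level between libraries, in the order of replicates 1 to 4, and a ± after a mean is the SD over 4 libraries. Ly6a, the gene of Sca-1, had 525, 518, 486 and 479 CPM in roxadustat libraries, against 172, 166, 158 and 158 CPM in control libraries, so the transcript that the sort aimed at was present in every library and the groups did not overlap. Epo, the gene of erythropoietin, had 1 count in roxadustat replicate 2, 1 in control replicate 2 and 0 in the other 6 libraries. That is under the floor of 3 counts per group, 0.0364 CPM with roxadustat and 0.0426 CPM in control cells, so no difference in Epo was detectable at this depth. Floors and intervals here cover counting error only. Among roxadustat libraries, replicate 2 and to a lesser degree replicate 1 held more transcripts of the mature tubule, with Kap, an abundant proximal tubule transcript, at 4.56, 20.6, 0.273 and 0.497 CPM in roxadustat libraries, against 3.11, 4.01, 3.46 and 4.29 CPM in control libraries. Without both libraries Kap was called lower with roxadustat (-3.22), but they were picked by these high values, so this is no independent result. Replicate 4 stood apart over many genes, by a chi-square per gene (count differences against counting error) of 15.9, 11.3 and 10.5 from replicates 1, 2 and 3. The other roxadustat pairs had 3.05 to 4.95. An example is the long noncoding nuclear RNA Neat1, at 502, 616, 571 and 1362 CPM with roxadustat against 401, 489.9, 413 and 448 CPM in control libraries. Where leaving out these libraries changed the call of a named gene, the value without them is given beside it.

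Of 18731 genes tested, 8926 (47.7%) were called at an adjusted p under 0.05 by edgeR's quasi-likelihood test with Benjamini-Hochberg adjustment, 4507 (24.1%) higher and 4419 (23.6%) lower with roxadustat. At least 2-fold changes were found for 1337 genes (7.14%) that were higher and 1148 (6.13%) that were lower. By the fitted values, 381 genes were at least 4-fold higher and 400 at least 4-fold lower, 116 and 167 at least 8-fold, 46 and 66 at least 16-fold, 22 and 14 at least 32-fold, and 9 and 4 at least 64-fold. The median log2 fold change of all tested genes was 0.03, the value beside which the medians of gene lists are given below. Counts of higher and lower list members are likewise to be read beside the 24.1% and 23.6% over all genes. The coefficient of variation between replicates beyond counting error was 6.28% with roxadustat and 4.07% in control cells. In the groups of day 0 and day 21, which share the estimate of the spread, it was 7.18% to 14.9%. Most of the 8926 calls were small changes, with a median size of 0.55 on the log2 scale.

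**Figure D1:**
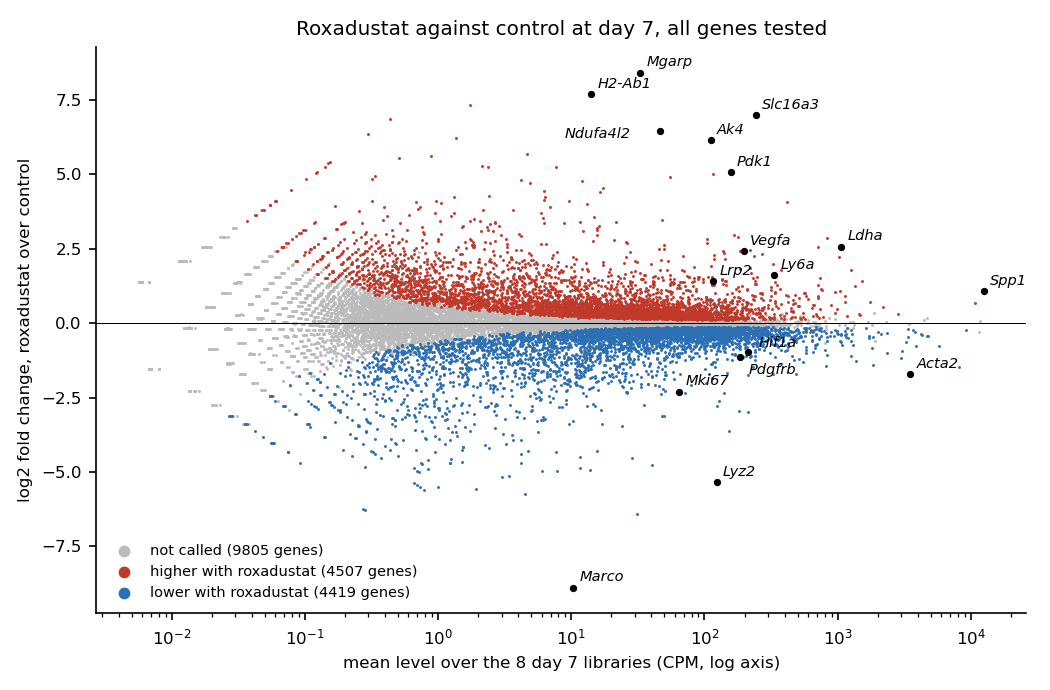
Log2 fold change of roxadustat over control at day 7 against the mean CPM of the 8 libraries (log axis) for the 18731 genes tested, with the 4507 higher genes in red, the 4419 lower genes in blue and genes not called in grey. Genes of glucose and mitochondrial metabolism such as Mgarp (8.42) and Slc16a3 (7.00) lie at the top, and macrophage genes such as Lyz2 (-5.33) at the bottom.

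The largest rises among well measured genes, those that reached 5 CPM on the higher side and 10 counts on the lower side, were led by a mitochondrial and a lactate carrier gene that hypoxia is known to induce. Mgarp, whose product sits on mitochondria and takes part in their transport under low oxygen, had 70.7, 63.8, 67.3 and 60.8 CPM in roxadustat libraries, against 0.194, 0.223, 0.162 and 0.161 CPM in control libraries. The lactate exporter gene Slc16a3 (also called MCT4) had 498, 468, 505 and 459 CPM in roxadustat libraries, against 3.75, 3.90, 4.22 and 3.22 CPM in control libraries. Within each group the libraries lay close together, and the groups lay far apart for both genes, with log2 fold changes of 8.42 ± 0.15 (SE) for Mgarp and 7.00 ± 0.09 for Slc16a3. Adjusted p-values (edgeR) were 1.2e-25 and 2.07e-28 in that order. Among protein-coding genes past the same limits, the next in size were Ndufa4l2 (6.45), Ak4 (6.15), Gsta2 (5.68), Atp7b (5.25), Pdk1 (5.08), Bnip3 (5.02), Pygl (4.92), Ppp1r3c (4.81), Smtnl2 (4.79) and Ankrd37 (4.70). The choice of these 12 also required all 4 roxadustat libraries to lie above all 4 control libraries, as held for 23.9% of all tested genes. H2-Ab1, described with antigen presentation below, was higher by 7.69 and was under the limit with 9 counts over the control libraries. Unless times are named, a rise or fall here means higher or lower with roxadustat than in control cells at day 7. Between day 0 and day 7 Slc16a3 went from 5.06 to 483 CPM with roxadustat and from 3.07 to 3.77 CPM in control cells. Ak4 went from 453 to 220 CPM with roxadustat and from 405 to 3.09 CPM in control cells.

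The promoters of the first 5 of these genes that have a single listed start were read from RefSeq (GRCm38.p6), 250 bases before to 50 bases after the start on the gene's own strand, to show where the HIF core lies in the genes that rose most. Capitals mark ACGTG or GCGTG, or their reverse complements CACGT and CACGC. Slc16a3 (chr11:120948817-120949116, plus strand) holds 2 matches, 27 and 14 bases before the start, Mgarp (chr3:51396498-51396797, minus strand) 1 at 219 bases, and Gsta2 (chr9:78347096-78347395, minus strand) 1 at 7 bases. Bnip3 (chr7:138909457-138909756, minus strand) holds 5, of which 2 overlap as CACGTG, between 117 and 35 bases before the start, and Atp7b (chr8:22060025-22060324, minus strand) holds none in this window.
Slc16a3: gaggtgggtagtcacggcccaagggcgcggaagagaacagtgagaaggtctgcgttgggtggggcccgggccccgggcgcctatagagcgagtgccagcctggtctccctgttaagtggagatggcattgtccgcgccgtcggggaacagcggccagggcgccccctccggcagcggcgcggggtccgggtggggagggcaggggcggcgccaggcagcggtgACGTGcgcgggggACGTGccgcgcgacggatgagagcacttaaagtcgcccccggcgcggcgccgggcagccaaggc
Mgarp: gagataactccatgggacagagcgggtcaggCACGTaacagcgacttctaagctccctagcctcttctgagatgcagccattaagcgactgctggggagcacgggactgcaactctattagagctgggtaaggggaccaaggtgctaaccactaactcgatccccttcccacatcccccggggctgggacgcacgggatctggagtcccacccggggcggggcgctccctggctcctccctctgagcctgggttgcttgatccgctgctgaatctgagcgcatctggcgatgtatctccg
Gsta2: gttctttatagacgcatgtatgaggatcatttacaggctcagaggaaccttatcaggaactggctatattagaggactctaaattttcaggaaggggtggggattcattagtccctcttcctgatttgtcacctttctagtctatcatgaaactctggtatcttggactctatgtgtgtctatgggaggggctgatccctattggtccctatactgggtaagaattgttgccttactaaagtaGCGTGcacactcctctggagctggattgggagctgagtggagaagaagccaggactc
Bnip3: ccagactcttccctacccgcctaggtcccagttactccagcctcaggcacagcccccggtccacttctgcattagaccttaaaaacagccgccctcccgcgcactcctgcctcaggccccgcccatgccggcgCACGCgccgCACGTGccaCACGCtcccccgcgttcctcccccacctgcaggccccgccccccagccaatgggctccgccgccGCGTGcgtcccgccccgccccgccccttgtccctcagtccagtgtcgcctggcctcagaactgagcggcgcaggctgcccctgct
Atp7b: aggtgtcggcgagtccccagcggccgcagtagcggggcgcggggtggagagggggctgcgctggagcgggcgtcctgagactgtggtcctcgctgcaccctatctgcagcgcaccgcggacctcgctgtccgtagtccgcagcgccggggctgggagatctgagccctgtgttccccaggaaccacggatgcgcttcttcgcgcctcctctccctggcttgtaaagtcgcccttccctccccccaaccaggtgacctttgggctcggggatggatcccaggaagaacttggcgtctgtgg
The core is short and common: 14380 of the 32851 promoter windows of that length in the RefSeq table (43.8%) hold at least 1 match. A match is a string in the window and was not tested for binding. Windows were found by symbol for 12402 (66.2%) of the genes tested, under the 80% that a comparison of gene groups would need, so none was made.

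The oxygen-sensing genes themselves moved in opposite directions, with 6 of 13 tested HIF subunit and hydroxylase genes higher, 4 lower and 3 not called, beside 24.1% higher and 23.6% lower over all genes. Egln3, the prolyl hydroxylase that is itself a HIF target, had 32.4, 29.7, 31.9 and 31.8 CPM in roxadustat libraries, against 1.23, 1.90, 1.57 and 1.18 CPM in control libraries, and Egln1, the main oxygen sensor, had 238, 231, 233 and 228 CPM in roxadustat libraries, against 49.1, 50.6, 57.2 and 53.2 CPM in control libraries. Both were higher in all roxadustat libraries than in any control library (log2 fold changes of 4.41 ± 0.12 and 2.15 ± 0.05, SE), while Egln2 fell slightly (-0.26). Hif1a had 144, 153, 145 and 139 CPM in roxadustat libraries, against 277, 283, 278 and 284 CPM in control libraries, so all roxadustat libraries lay at about the same distance below all control libraries (-0.95 ± 0.05, edgeR adjusted p = 1.35e-14). Epas1 had 2.11, 3.02, 2.56 and 3.62 CPM in roxadustat libraries, against 7.76, 7.81, 8.93 and 9.23 CPM in control libraries, also without overlap (-1.57 ± 0.26, edgeR adjusted p = 0.000105). Per kilobase of exon, Hif1a stood at 24.6 CPM with roxadustat and 47.6 CPM in control cells, and Epas1 at 0.506 and 1.51 CPM, so the HIF-1α transcript was the more abundant alpha subunit in both groups. Vhl rose by 0.47 on the log2 scale and Arnt fell by 0.26 (not called without roxadustat replicates 1 and 2, -0.20), while Hif1an, the asparagine hydroxylase FIH, was not called (45.1 ± 0.579 CPM with roxadustat and 46.01 ± 0.753 CPM in control cells). These are RNA levels, and HIF protein was not measured.

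Glucose uptake and the upper steps of glycolysis rose broadly. Of the 21 tested genes from transporter to triose phosphate, 13 were higher, 3 lower and 5 not called, with a median log2 fold change of 1.27. The glucose transporter gene Slc2a1 had 229.9, 230.1, 245 and 233 CPM in roxadustat libraries, against 44.4, 44.7, 48.2 and 45.1 CPM in control libraries (5.14-fold higher). Pfkl, the liver-type subunit of phosphofructokinase, rose most among abundant members (817, 780.0, 802 and 741 CPM in roxadustat libraries, against 49.2, 45.8, 45.98 and 44.6 CPM in control libraries), and its relatives Pfkp and Pfkm rose by 1.86 and 0.29. Aldoc (4.55), Tpi1 (2.57), Gpi1 (1.81), Aldoa (1.81), Hk1 (1.27) and Hk2 (1.01) were also higher, as was Pfkfb3, whose product makes the activator of phosphofructokinase (2.11). The 3 lower members were Pfkfb4 (-0.51), Pfkfb1 (-0.77) and the myeloid hexokinase gene Hk3 (-4.05, 0.363 ± 0.101 CPM with roxadustat and 6.12 ± 0.597 CPM in control cells).

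From 3-phosphoglycerate to lactate, 12 of 15 genes were higher and 3 lower (median 1.42). Ldha, which turns pyruvate into lactate, had 1919.5, 1811, 1803 and 1744 CPM in roxadustat libraries, against 295, 313, 313 and 299 CPM in control libraries, and Pkm, pyruvate kinase, 2311, 2198, 2234 and 2084 CPM in roxadustat libraries, against 862, 815, 834 and 784 CPM in control libraries. Neither gene's groups overlapped, and together with Aldoa and Tpi1 they were among the 8 largest rises in CPM. Bsg, the chaperone of lactate carriers at the membrane, rose 2.85-fold, whereas Slc16a1 rose by 0.28 (0.23 and not called without roxadustat replicates 1 and 2) and the other carrier gene Slc16a7 fell by 1.52. The isoform genes Eno2 (-0.43) and Eno3 (-0.83) were lower while Eno1, the common enolase gene, was higher (2.01). Pgk1, Gapdh and Pgam1 also rose (2.62, 1.65 and 2.04), but each has many near-identical pseudogenes in the mouse genome that can draw reads away, so their levels are uncertain. Exons of Pkm overlap those of another gene over 15.3% of their length, and the libraries were not stranded.

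At the gate between glycolysis and the mitochondrion, Pdk1, the kinase that switches pyruvate dehydrogenase off, had 330.3, 308, 306 and 275 CPM in roxadustat libraries, against 8.54, 8.31, 8.82 and 10.2 CPM in control libraries. This is 33.9-fold, and the other kinase genes rose far less: Pdk2 by 0.82, Pdk3 by 0.67 and Pdk4 by 0.78 on the log2 scale. Pdha1, a subunit of the target enzyme, fell by 0.32. The other subunit genes Pdhb, Dlat and Pdhx were not called, at log2 fold changes of -0.04, -0.10 and -0.00.

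Glycogen genes shared the rise, with 9 of 18 tested members higher, 3 lower and 6 not called. Pygl, liver glycogen phosphorylase, had 111, 109, 104 and 103 CPM in roxadustat libraries, against 3.30, 2.79, 3.84 and 4.08 CPM in control libraries. Gys1, glycogen synthase, had 173, 175, 186 and 174 CPM in roxadustat libraries, against 47.2, 45.1, 49.3 and 46.1 CPM in control libraries, and the branching enzyme gene Gbe1 rose 7.19-fold. For Pygl and Gys1 all roxadustat libraries lay above all control libraries. The 3 lower members were Pygb, brain-type phosphorylase (-0.43), Gyg, the glycogenin primer (-0.30), and Stbd1, a glycogen-binding protein (-0.88). Ppp1r3c and Ppp1r3b, which bring protein phosphatase 1 to glycogen, rose by 4.81 and 2.41. A further member of that family, Ppp1r3g, had 288 counts over the roxadustat libraries and 1 over the control libraries, a ratio of 246 with an exact 95% counting interval from 43.8 to 9760.

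**Figure D2:**
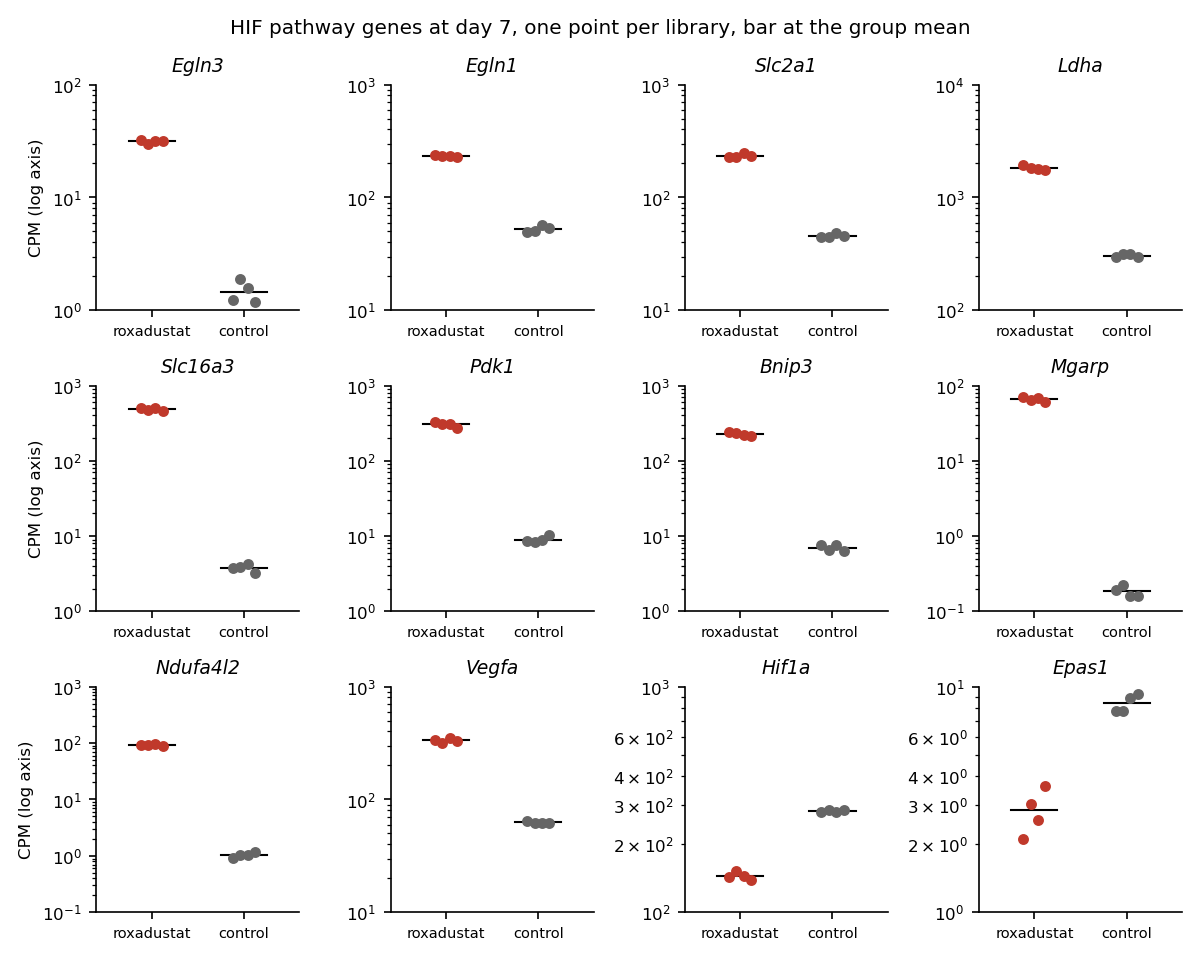
CPM (log axis) of 12 genes in each library, roxadustat in red at the left and control in grey at the right of each panel, with short bars at group means. Roxadustat libraries lie above control libraries without overlap in all panels except Hif1a and Epas1, where they lie below.

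Mitochondrial proteins that hypoxia is known to bring in rose, while the respiratory chain did not. Ndufa4l2, which replaces a subunit of the chain under HIF control, had 91.4, 92.8, 97.4 and 87.2 CPM in roxadustat libraries, against 0.906, 1.06, 1.03 and 1.18 CPM in control libraries; Ndufa4, the subunit it is related to, had 74.8, 73.2, 67.01 and 67.3 CPM in roxadustat libraries, against 126, 128, 139.7 and 130.4 CPM in control libraries. The first rose by 6.45 and the second fell by 0.89 on the log2 scale, the largest fall of the 73 nuclear respiratory chain genes tested. Cox4i2, the hypoxic form of cytochrome oxidase subunit 4, rose by 4.29, whereas the common form Cox4i1 was not called (-0.16), although it was without roxadustat replicate 1 (-0.19) or control replicate 1 (-0.20). Receptors that mark mitochondria for removal were higher, with Bnip3 at 242, 233, 219 and 214 CPM in roxadustat libraries, against 7.57, 6.58, 7.57 and 6.33 CPM in control libraries and Bnip3l at 159.7, 168, 155 and 153 CPM in roxadustat libraries, against 53.7, 57.5, 52.04 and 54.9 CPM in control libraries. Exons of Bnip3 overlap another annotated gene over 22.3% of their length. The whole list of mitophagy and hypoxic mitochondrial genes had 10 members higher, none lower and 4 not called of 14 tested (median 1.47), including Fam162a (2.97), Higd1a (2.51) and the protease gene Lonp1 (0.62).

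Of the 73 nuclear respiratory chain genes, 25 were lower, 1 was higher (Ndufv3, 1.01) and 47 were not called. Their falls were small, with a median of -0.13, and scaling by library size alone left 14 lower and 3 higher. In the tricarboxylic acid cycle list 11 of 25 were lower and 3 higher: Idh2 (-0.77), Idh3a (-0.63) and citrate synthase Cs (-0.46) fell, and Me1, the cytosolic malic enzyme, rose (1.09). With DESeq2's size factors 14 of this list were lower, and with scaling by library size alone 8. Transcripts of the mitochondrial genome itself were lower. Cytochrome oxidase subunit 1, mt-Co1, had 1896, 1986, 1811 and 1729 CPM in roxadustat libraries, against 4351, 4223, 3925 and 4034 CPM in control libraries, and 6 of 7 mitochondrially encoded protein genes tested were lower with none higher. All counts on mitochondrial genes, ribosomal RNA included, made up 0.872% ± 0.072 of a roxadustat library and 2.06% ± 0.087 of a control library. The difference of 1.19 percentage points in the direction of less with roxadustat had an exact two-sided permutation p of 0.0286, the smallest that 4 against 4 libraries can give.

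Genes of the cytosolic ribosome were lower, while those of the mitochondrial ribosome changed little. Of 81 cytosolic ribosomal protein genes tested, 66 were lower and none higher, with a median of -0.55. Examples among abundant members are Rpl4 (518 ± 11.9 CPM with roxadustat and 866 ± 7.50 CPM in control cells) and Rplp1 (309 ± 18.4 CPM with roxadustat and 533 ± 19.7 CPM in control cells). Many of these genes have processed pseudogenes, so single levels are uncertain. Among 77 mitochondrial ribosomal protein genes 20 were lower and 5 higher (median -0.09), a share of lower genes near the 23.6% over all genes and a count that depended on scaling (12 lower and 10 higher by library size alone, 30 lower with DESeq2's size factors).

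Among other known HIF targets, 26 of 30 tested were higher and 2 lower, with a median of 1.41. Ak4, a mitochondrial adenylate kinase, had 228, 227, 223 and 200.3 CPM in roxadustat libraries, against 3.30, 2.90, 3.03 and 3.11 CPM in control libraries. Car9 and Car12, carbonic anhydrases of the cell surface that acidify the surroundings, had 11.7, 10.6, 10.8 and 11.1 CPM in roxadustat libraries, against 0.841, 1.12, 0.703 and 0.752 CPM in control libraries for Car9 and 26.3, 24.7, 22.8 and 24.7 CPM in roxadustat libraries, against 1.42, 1.23, 1.57 and 1.83 CPM in control libraries for Car12. The groups lay far apart for both. Of the other carbonic anhydrase genes, Car11 rose by 1.87 and Car2, the cytosolic form, by 0.70, whereas Car8 and Car13 fell by 0.49 and 0.44. Ero1l, which oxidises protein disulphide isomerase in the endoplasmic reticulum (ER), rose 4.78-fold, Ddit4, an inhibitor of mTOR, 2.85-fold and Ndrg1 2.94-fold. Ankrd37 had 10.4, 8.64, 10.1 and 8.59 CPM in roxadustat libraries, against 0.518, 0.279, 0.270 and 0.376 CPM in control libraries, and shares 26.4% of its exon length with another gene. Bhlhe40 rose by 0.57 while its relative Bhlhe41, a repressor of the same family, fell by 0.31, a call lost without roxadustat replicate 3 (-0.27) or control replicate 4 (-0.26) and without roxadustat replicates 1 and 2 together (-0.33).

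Angiogenic ligands and their receptors did not move together. Vegfa, the main vessel growth factor, had 339, 315, 351 and 332 CPM in roxadustat libraries, against 65.03, 62.3, 61.3 and 62.003 CPM in control libraries (5.34-fold higher). Apln, the ligand of the apelin receptor, rose by 4.11 (18.2 ± 1.41 CPM with roxadustat and 1.05 ± 0.0787 CPM in control cells) and Pgf, placental growth factor, by 0.97. Vegfc fell by 1.12 and Angpt1, the Tie2 agonist, by 0.77. On the receptor side Flt1, which binds Vegfa and Pgf, had 17.9, 17.4, 23.3 and 21.2 CPM in roxadustat libraries, against 65.3, 66.2, 65.7 and 71.02 CPM in control libraries, so its roxadustat libraries lay below all control libraries, while the coreceptor gene Nrp1 rose by 0.60 and Nrp2 fell by 0.84. In the whole list 10 of 26 genes were higher and 9 lower, so calls in both directions were about equal in number.

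The adrenomedullin system showed the same split. Adm, a vasodilator peptide, had 88.3, 86.4, 93.1 and 81.9 CPM in roxadustat libraries, against 7.38, 9.09, 7.68 and 7.46 CPM in control libraries, and its relative Adm2 rose by 4.25. Calcrl, the receptor for both, had 9.99, 9.30, 7.91 and 7.91 CPM in roxadustat libraries, against 17.6, 17.2, 19.9 and 20.7 CPM in control libraries, so ligands rose and the receptor fell without overlap of the groups. Both endothelin receptor genes were lower, Ednra by 1.83 and Ednrb by 3.46 on the log2 scale, while the ligand gene Edn1 rose by 0.83. In adenosine signalling Nt5e, the surface enzyme CD73 that marks erythropoietin-producing interstitial cells in kidney, had 356, 334, 327 and 308 CPM in roxadustat libraries, against 338, 356, 334 and 343 CPM in control libraries, and its groups overlapped (log2 fold change -0.05 ± 0.06 SE, edgeR adjusted p = 0.555). Enpp1 (-2.33), Entpd1 (-1.80) and the nucleoside carrier gene Slc29a1 (-1.59) were lower.

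Prolyl hydroxylases are one branch of the 2-oxoglutarate dioxygenases, and genes of other branches were looked at beside them. Of 22 histone, DNA and RNA demethylase genes of this class, 13 were higher, 1 lower and 8 not called. With DESeq2's size factors 11 were higher, and with scaling by library size alone 16. Kdm4b rose by 1.37, the RNA demethylase gene Alkbh5 by 1.00 and Kdm3a by 0.95, and Jmjd1c fell by 0.17. The call of Jmjd1c was lost without roxadustat replicate 1 (-0.14) or 3 (-0.15), without control replicate 2 (-0.16) or 4 (-0.17, edgeR adjusted p = 0.0514), without roxadustat replicates 1 and 2 together (-0.15) and with scaling by library size alone. Enzyme activity was not measured.

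Genes of glutathione, thioredoxin and the pentose phosphate path formed a second block of rises. In that list 20 of 31 tested genes were higher and 3 lower, with a median of 0.84. Hmox1, heme oxygenase, had 1506, 1429, 1476 and 1443 CPM in roxadustat libraries, against 217, 197, 202 and 189.6 CPM in control libraries and was among the 8 largest rises in CPM. Nqo1, a quinone reductase and a classical NRF2 target, had 144, 132, 129 and 124 CPM in roxadustat libraries, against 33.5, 36.9, 37.5 and 34.5 CPM in control libraries. Slc7a11, the cystine carrier (3.48-fold), Gclm, a subunit of the first enzyme of glutathione synthesis (2.84-fold), Srxn1 (2.68-fold) and Txnrd1 (2.18-fold) were higher in all roxadustat libraries than in any control library. The pentose phosphate genes G6pdx, Pgd, Tkt and Taldo1 rose by 1.41, 1.32, 1.30 and 1.13. Nfe2l2, the gene of NRF2, stood at 222 ± 6.59 CPM with roxadustat and 222 ± 3.17 CPM in control cells and was not called. Gsta2, a glutathione transferase gene with close paralogs, had 9.94, 9.39, 8.07 and 8.91 CPM in roxadustat libraries, against 0.259, 0.0558, 0.216 and 0.161 CPM in control libraries, and which paralog gave the reads is uncertain. Gpx1, Gpx8 and Txn1 were the 3 lower members (-0.45, -0.60 and -0.37).

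Metal handling changed as well. Atp7b, the copper exporter mutated in Wilson disease, had 14.7, 13.5, 16.5 and 14.97 CPM in roxadustat libraries, against 0.453, 0.390, 0.216 and 0.483 CPM in control libraries, and the metallothionein genes Mt1 and Mt2 rose by 1.29 and 1.76. In the iron and heme list 13 of 24 were higher and 5 lower. The transferrin receptor gene Tfrc rose 1.73-fold, and Hfe, Fth1, Cp and Slc40a1 rose by 1.84, 0.50, 0.47 and 0.46. Slc25a37 and Steap3, which bring iron into mitochondria and reduce it in endosomes, fell by 0.69 and 1.16.

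Genes of cell division were lower with roxadustat almost without exception. All 42 mitosis and spindle genes tested were lower (median -1.83), as were 37 of 42 DNA replication genes, with the other 5 not called. Mki67, the proliferation marker Ki-67, had 20.99, 22.6, 22.5 and 21.7 CPM in roxadustat libraries, against 108, 107, 106 and 109.6 CPM in control libraries, and Top2a, which untangles chromosomes, had 38.95, 43.3, 41.8 and 40.4 CPM in roxadustat libraries, against 166, 168, 160.0 and 165 CPM in control libraries. Among the largest falls were those of Kif11 (-2.32), Plk1 (-2.27), Cdc6 (-1.90) and Mcm5 (-1.63). The E2F-controlled factors E2f7 (-2.18), Mybl2 (-1.92), Ccne2 (-1.55) and Foxm1 (-1.53) were lower too, but the D-type cyclin genes Ccnd1, Ccnd2 and Ccnd3 were not called (-0.09, -0.08 and -0.06), and Myc was higher, at 43.5, 43.1, 46.1 and 51.4 CPM in roxadustat libraries, against 28.4, 25.9, 26.8 and 25.7 CPM in control libraries.

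Inhibitors of the cycle and p53 targets rose more often than they fell, 14 against 5 of 25 (median 0.20). The balance was 11 and 5 with DESeq2's size factors and 17 and 3 with scaling by library size alone. Without roxadustat replicates 1 and 2 it was 10 and 5. Cdkn1a, the inhibitor p21, had 276, 251, 278 and 296 CPM in roxadustat libraries, against 181, 159, 189 and 171 CPM in control libraries. Trp53inp1 (0.85), Sesn2 (0.75) and Mdm2 (0.60) were higher, Cdkn1c (-0.77) and Cdkn2c (-0.64) lower, and Trp53 itself was not called (0.21). Cdkn2b, the inhibitor p15, rose only by 0.20, and this call was lost without roxadustat replicates 1 and 2 (0.18). Without these libraries Trp53 was called (0.35).

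Lipid genes were mixed. Of 32 genes of fatty acid synthesis and storage, 12 were higher and 10 lower, a balance that turned to 11 and 12 with DESeq2's size factors. The higher ones were led by Vldlr, the VLDL receptor gene (298, 290.1, 287 and 282 CPM in roxadustat libraries, against 85.5, 79.9, 79.9 and 79.9 CPM in control libraries), and Hilpda, an inhibitor of lipid breakdown on droplets (1.72), with Plin2, a droplet coat gene, at 0.62. Cd36, a fatty acid and scavenger receptor that macrophages also carry, had 1.82, 3.30, 2.18 and 2.13 CPM in roxadustat libraries, against 52.3, 56.1, 52.5 and 57.01 CPM in control libraries, and Lpl, lipoprotein lipase, fell by 2.30. Cholesterol genes were lower in 13 of 27 cases and higher in 4, with the exporter genes Abca1 (-0.67) and Abcg1 (-2.08) at the low end. In fatty acid oxidation 12 of 30 were higher and 3 lower; without roxadustat replicates 1 and 2, 8 were higher and 2 lower.

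The amino acid stress list, targets of ATF4, went both ways. Gdf15, a stress hormone, had 324, 306, 342 and 324 CPM in roxadustat libraries, against 63.99, 60.5, 58.2 and 55.6 CPM in control libraries, and Stc2 and Slc7a11 also rose (1.30 and 1.80). Enzyme genes of the serine and one-carbon paths were lower: Psat1 had 73.8, 68.9, 68.9 and 67.7 CPM in roxadustat libraries, against 166, 169, 177 and 168 CPM in control libraries, and Phgdh, Psph, Shmt2 and Mthfd2 fell by 0.49, 0.39, 0.43 and 0.60. Pycr1 of proline synthesis and the carrier gene Slc7a5 also fell (-0.77 and -0.92). In all 11 of 28 were higher and 10 lower, while 10 and 10 were so without roxadustat replicate 2. ER chaperones were lower in 16 of 29 cases and higher in 6, with Hspa5 at -0.38 and the collagen chaperone gene Serpinh1 at -0.84.

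Contractile genes were among those furthest below control cells in CPM. Acta2, smooth muscle actin, had 1631, 1604, 1638 and 1660.3 CPM in roxadustat libraries, against 5643, 5338, 5428 and 5122 CPM in control libraries, and Tagln, an actin-binding protein of smooth muscle, 1054, 1029.5, 1018 and 994 CPM in roxadustat libraries, against 2552, 2779.5, 2701 and 2691 CPM in control libraries. Actb (4316 ± 107 CPM with roxadustat and 7307 ± 195 CPM in control cells), Myh9 (2857 ± 199 CPM with roxadustat and 4849 ± 134 CPM in control cells) and Tpm1 (1564 ± 30.03 CPM with roxadustat and 3152 ± 74.9 CPM in control cells), genes of the general cytoskeleton, were lower as well, so Actb is no fixed reference here. Exons of Tagln overlap another annotated gene over 67.9% of their length. Of 15 pericyte and smooth muscle markers, 9 were lower and 2 higher, with Cspg4, the pericyte proteoglycan NG2, at 9.46, 8.83, 10.8 and 12.03 CPM in roxadustat libraries, against 86.4, 93.6, 88.4 and 90.99 CPM in control libraries, and Mcam at 34.3, 32.3, 32.2 and 26.3 CPM in roxadustat libraries, against 233, 217, 204 and 209 CPM in control libraries. The higher ones were Notch3 (1.15) and Synpo2 (0.36). Summed over the list, these markers took 3141 to 3207 CPM with roxadustat and 9336 to 9703 CPM in control libraries. In such bulk samples fewer cells of a type and less RNA per cell cannot be told apart.

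Collagen genes fell more often than they rose, 18 against 10 of 40 tested (median -0.55). The fibrillar Col1a2 and Col3a1 had 1939, 1992, 2368 and 2146 CPM in roxadustat libraries, against 4065, 3938, 3948 and 4084 CPM in control libraries for Col1a2 and 4045, 3838, 4385 and 3684 CPM in roxadustat libraries, against 5319, 5212, 5689.6 and 5452 CPM in control libraries for Col3a1. Without roxadustat replicates 1 and 2 the call of Col3a1 was lost (-0.42, edgeR adjusted p = 0.0836). Col1a1 (624 ± 192 CPM with roxadustat and 989 ± 75.7 CPM in control cells) and Col5a2 (1519 ± 121 CPM with roxadustat and 2296 ± 21.6 CPM in control cells) were not called although their means were lower. Col1a1 was called without roxadustat replicate 4 (-0.86, edgeR adjusted p = 0.0234), and Col5a2 in a fit of the 8 libraries alone (-0.61, edgeR adjusted p = 6.15e-13). The largest falls with high levels were those of Col6a3 (23.1, 19.9, 28.2 and 22.4 CPM in roxadustat libraries, against 267, 256, 316 and 299.9 CPM in control libraries) and Col11a1 (-2.95). Basement membrane chains parted: Col4a1 (-0.61) and Col4a2 (-0.51), the common chains, were lower, and Col4a3 (0.79), Col4a4 (0.92), Col4a5 (0.96) and Col4a6 (1.79), the chains of glomerular and tubular membranes, were higher.

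Enzymes that hydroxylate and crosslink collagen went in both directions, 11 higher and 18 lower with no member uncalled among 29. Higher were the collagen prolyl hydroxylase genes P4ha1 (1760.5, 1720.0, 1733 and 1591 CPM in roxadustat libraries, against 362, 368, 360.4 and 360.3 CPM in control libraries) and P4ha2 (5.53-fold), the lysyl hydroxylase gene Plod2 (2.25-fold) and Lox, lysyl oxidase (1775, 1885, 1979 and 1974 CPM in roxadustat libraries, against 800.3, 816, 784 and 824 CPM in control libraries), all known HIF targets. Lower were Loxl3 (-1.68), P4ha3 (-1.32), Fkbp10 (-1.12) and Pcolce (-0.85). The glycoprotein genes Fn1, Tnc and Ccn2, among the most abundant in these cells, were not called, with log2 fold changes of 0.17, -0.04 and -0.05. Fbn1 (-0.73), Thbs2 (-1.24), Bgn (-1.46) and Vcan (-0.78) were lower. Spp1, osteopontin, was the largest rise of all in CPM, with 18066, 17185, 16632 and 15881 CPM in roxadustat libraries, against 7884, 8386, 7751 and 8257 CPM in control libraries.

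Matrix proteases and their inhibitors were lower in 23 of 38 cases and higher in 8. The surface collagenase gene Mmp14 (-0.94), Mmp2 (-0.72), Ctsk (-1.11) and the inhibitor genes Timp1 (-0.90) and Timp2 (-0.47) fell. Adamts1 (1415, 1379.9, 1469.9 and 1392 CPM in roxadustat libraries, against 692, 655, 625 and 669 CPM in control libraries), Adamts5 (1.40) and Timp3 (1.06) rose. Among 41 integrins, laminins and matrix receptors 13 were higher and 19 lower. The higher ones held the epithelial laminin chains Lama3 and Lamb3 (1.56 and 1.19) and Itgb6 (3.00), and the fibronectin receptor gene Itga5 had 82.2, 89.3, 103 and 117 CPM in roxadustat libraries, against 322, 319.8, 343 and 331 CPM in control libraries.

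At day 7 stromal identity genes were more often lower and epithelial ones more often higher than in control cells. Of 21 general kidney epithelium markers 15 were at least 2-fold higher, beside 7.14% over all genes. Of 20 fibroblast markers 5 were at least 2-fold lower, beside 6.13% over all genes. From day 0 to day 7 single genes moved differently. Lrp2 fell in both groups (9849 to 170 CPM with roxadustat, 8741 to 63.7 CPM in control cells). Pdgfrb rose in both (5.03 to 115 CPM with roxadustat, 6.18 to 255 CPM in control cells). Pax8 rose with roxadustat (72.5 to 115 CPM) and fell in control cells (65.5 to 48.1 CPM). Fibroblast markers were lower in 11 of 20 cases, higher in none and not called in 9, and their sum was 10122 to 11545 CPM with roxadustat and 14885 to 15450 CPM in control libraries. Pdgfrb had 106, 109, 125 and 121 CPM in roxadustat libraries, against 257, 242, 261 and 261 CPM in control libraries, and Thy1 17.7, 17.1, 18.4 and 16.8 CPM in roxadustat libraries, against 80.4, 73.04, 87.3 and 81.6 CPM in control libraries, without overlap of the groups for either. Pdgfra, the receptor that marks interstitial fibroblasts, was low in all libraries (5.91, 5.10, 5.34 and 5.65 CPM in roxadustat libraries, against 12.6, 11.7, 13.9 and 13.9 CPM in control libraries) and lower with roxadustat. Stromal transcription factor genes were lower in 17 of 35 cases and higher in 3, with Snai2 (-1.08), Twist1 (-0.72), Tbx18 (-1.05) and Zeb1 (-0.46) among the lower and Runx2 (0.51) among the higher. Of 16 surface markers of mesenchymal stromal cells 10 were lower and 3 higher. These 3 were Ly6a (1.62), Lepr, the leptin receptor gene (1.94), and Cd34 (1.53).

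Markers of kidney epithelium were higher in 17 of 21 cases and lower in none (median 1.23). Cdh16, the kidney cadherin, had 213, 212, 209 and 195 CPM in roxadustat libraries, against 89.6, 85.5, 80.8 and 83.1 CPM in control libraries. Krt8, an epithelial keratin, had 59.03, 56.7, 53.7 and 49.5 CPM in roxadustat libraries, against 21.9, 25.7, 21.4 and 22.98 CPM in control libraries, and Pax8, a factor of the whole nephron epithelium, 109.7, 114, 114 and 124 CPM in roxadustat libraries, against 48.7, 47.95, 46.3 and 49.7 CPM in control libraries. Summed over the list they took 680.1 to 699 CPM with roxadustat and 299 to 309 CPM in control libraries. All 4 roxadustat libraries contributed alike, and without replicates 1 and 2, 18 of the 21 were higher. Among 44 junction and cytoskeleton genes 33 were higher and 7 lower, with Cdh11, the mesenchymal cadherin, at 218, 209.6, 211 and 195 CPM in roxadustat libraries, against 546, 525, 534 and 544 CPM in control libraries and Vim at -0.41 among the lower, and Ocln (1.25) and Cldn4 (1.18) of the tight junction among the higher. Epithelial transcription factor genes were higher in 14 of 33 cases and lower in 5: Sall1 (1.33) rose and Mecom (-0.84) fell.

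Proximal tubule markers need the libraries named above to be kept in mind. In the full set 6 of 15 were higher and none lower. Lrp2, the endocytic receptor megalin, had 163, 169, 176 and 173 CPM in roxadustat libraries, against 62.8, 65.8, 61.5 and 64.6 CPM in control libraries, Ggt1, a brush border peptidase, 47.8, 47.4, 42.2 and 43.1 CPM in roxadustat libraries, against 7.96, 7.36, 6.22 and 6.44 CPM in control libraries, and Cyp4b1 51.97, 54.9, 47.4 and 45.8 CPM in roxadustat libraries, against 16.95, 16.4, 14.6 and 13.7 CPM in control libraries, levels that were alike in all 4 roxadustat libraries. Transporters of the mature tubule did not follow them: Slc34a1, the phosphate carrier, had 1.20, 2.45, 0.0545 and 0 CPM in roxadustat libraries, against 0.582, 0.781, 0.487 and 0.591 CPM in control libraries, so only replicates 1 and 2 exceeded control cells, and without both it was called lower (-4.25). These 2 replicates were picked because their tubule transcripts were high, so lower calls without them are no independent result. Without these 2 replicates 6 markers were higher and 4 lower, and without replicate 2 alone 6 were higher and 2 lower. The list's median was 0.81 with all libraries, -0.20 without replicate 2 and -0.62 without both. Loop, distal tubule and collecting duct markers summed to 3.76 to 14.8 CPM with roxadustat and 4.72 to 5.85 CPM in control libraries, with 2 of 17 higher, and without the 2 replicates 1 was higher and 2 lower. Without roxadustat replicate 4 also 1 was higher. Of injury genes, Havcr1, kidney injury molecule 1, was abundant and not called (907 ± 40.4 CPM with roxadustat and 807 ± 28.4 CPM in control cells), Clu rose by 1.55 and Cd24a by 1.17, and Timp1 and Anxa1 fell by 0.90 and 1.10.

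**Figure D3:**
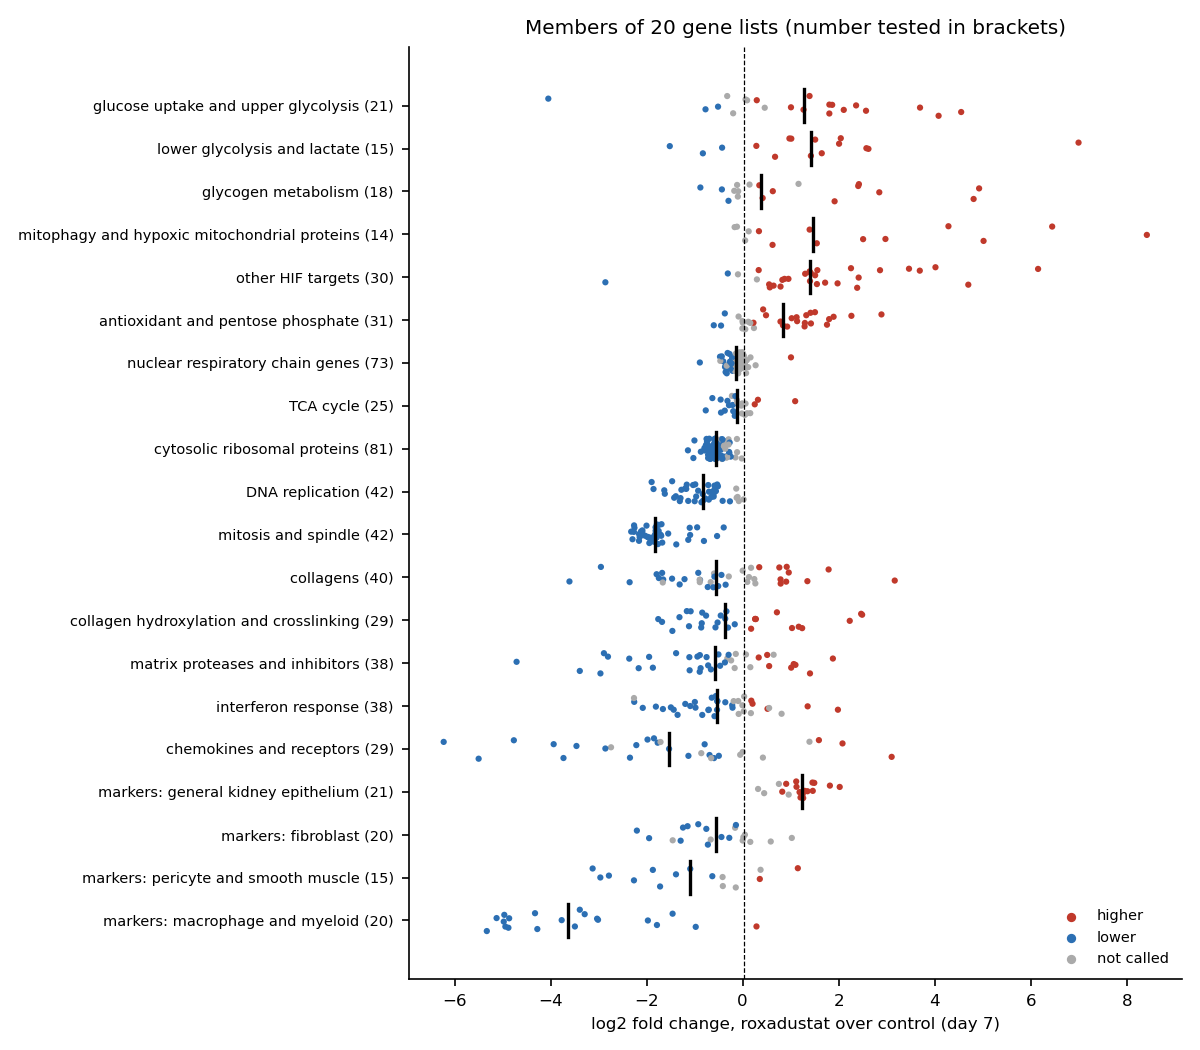
Log2 fold change of roxadustat over control for every tested member of 20 gene lists (points: red higher, blue lower, grey not called) with a black bar at the list's median and a dashed line at the median of all tested genes (0.03). Glycolysis, HIF target and epithelial lists lie to the right, mitosis, ribosomal, chemokine and macrophage lists to the left.

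Macrophage transcripts were far lower with roxadustat than in control cells at day 7. Of 20 macrophage and myeloid markers 19 were lower and 1 higher (median -3.63), and their sum was 44.3 to 49.5 CPM with roxadustat and 452 to 466 CPM in control libraries. Lyz2, lysozyme, had 6.29, 6.09, 5.89 and 5.74 CPM in roxadustat libraries, against 242, 244, 241 and 239 CPM in control libraries. Adgre1, the surface protein F4/80, had 0.0961, 0.0944, 0.273 and 0.271 CPM in roxadustat libraries, against 6.66, 5.80, 6.76 and 7.19 CPM in control libraries, and C1qb, a subunit of complement C1q, 0.288, 0.755, 0.709 and 0.181 CPM in roxadustat libraries, against 15.8, 16.2, 13.9 and 14.2 CPM in control libraries. Replicates lay close together for Lyz2 and, with few counts, spread more for the other 2 among roxadustat libraries. Groups without overlap were a condition for the choice of these genes. Roxadustat cells were lower by the fit 40.2-fold for Lyz2, 31.2-fold for C1qb and 34.9-fold for Adgre1. Csf1r, the receptor for the macrophage growth factor, fell by less (4.66, 4.67, 3.71 and 4.43 CPM in roxadustat libraries, against 8.61, 8.64, 9.30 and 7.999 CPM in control libraries). Cd14 was the one marker called higher (22.1 ± 1.40 CPM with roxadustat and 18.1 ± 0.987 CPM in control cells), a call that was lost without roxadustat replicates 1 and 2 (0.21) or without control replicate 4 (0.25). Further large falls were those of Wfdc17 (-5.74), Tyrobp (-4.98), Ccl6 (-4.77), Cd36 (-4.52) and the scavenger receptor gene Msr1 (-4.50). Clec7a, the fungal sugar receptor Dectin-1, is listed as a polymorphic pseudogene in the annotation and was added after its values were seen, with 1.20, 0.661, 0.600 and 0.407 CPM in roxadustat libraries, against 61.6, 63.1, 59.6 and 60.9 CPM in control libraries. Ptprz1, a receptor phosphatase, and Serpinb2, the inhibitor PAI-2, fell by 5.17 and 4.71. Marco, a scavenger receptor, had 3 counts over the roxadustat libraries and 1462 over the control libraries. This is a ratio of 570 with an exact 95% counting interval from 195 to 2770. Ccl3 had 3 and 139 counts, 54.2-fold lower (18.2 to 266). At day 0 Lyz2 had 55.8 CPM with roxadustat and 13.8 CPM in control cells. From day 0 to day 7 C1qb went from 17.1 to 0.483 CPM with roxadustat and from 6.66 to 15.04 CPM in control cells. Marco went from 0.038 to 0.035 CPM with roxadustat and from 0 to 20.7 CPM in control cells. For Lyz2 and C1qb the gap at day 7 thus held a fall with roxadustat and a rise in control cells. For Marco it held only the rise.

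Chemokine genes were lower in 18 of 29 cases and higher in 3. Cxcl12, which stromal cells make, had 2.88, 4.30, 4.14 and 4.61 CPM in roxadustat libraries, against 44.8, 41.5, 43.7 and 46.1 CPM in control libraries, and Ccl2, the monocyte attractant, 6.63, 6.42, 6.49 and 6.65 CPM in roxadustat libraries, against 22.6, 23.2, 24.7 and 23.8 CPM in control libraries. Neither pair of groups overlapped. Ackr3, the scavenging receptor of Cxcl12, rose by 3.10 (22.02 ± 1.07 CPM with roxadustat and 2.57 ± 0.421 CPM in control cells), and Cxcl1, a neutrophil attractant, rose by 1.59. Interferon response genes were lower in 23 of 38 cases and higher in 5, with Ifitm3 (-1.44), Gbp2 (-1.09) and Bst2 (-0.98) among the lower and Ifit3 (16.6 ± 0.530 CPM with roxadustat and 4.22 ± 0.717 CPM in control cells) among the higher. Among interleukin-6 family and NF-kB genes 13 were higher and 16 lower, and without roxadustat replicates 1 and 2 the lower ones were 9. Il33, an alarmin, had 488, 450.0, 462 and 408 CPM in roxadustat libraries, against 85.3, 75.4, 105 and 93.997 CPM in control libraries, and Icam1 rose by 1.43, while Il1rn, the interleukin-1 receptor antagonist, fell by 3.27.

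Hk3, Cd36 and most of the chemokine genes named here are also made by macrophages. Macrophage markers summed to 44.3 to 49.5 CPM with roxadustat, against 452 to 466 CPM in control libraries. The part of these cells in the differences was not tested.

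Of 12 tested MHC class II genes 4 were higher and none lower, and 1 of them differed by far the most. H2-Ab1, the beta chain of an MHC class II molecule, had 31.03, 26.1, 28.7 and 26.1 CPM in roxadustat libraries, against 0.194, 0.0558, 0.162 and 0.107 CPM in control libraries, a log2 fold change of 7.69 ± 0.35 (SE, edgeR adjusted p = 9.06e-11). Between day 0 and day 7 H2-Ab1 went from 42.3 to 28.0 CPM with roxadustat and from 51.4 to 0.130 CPM in control cells. Its partner chain H2-Aa had 0.0961, 0.142, 0.164 and 0.0452 CPM in roxadustat libraries, against 0, 0.0558, 0.0541 and 0 CPM in control libraries and was not called, nor were H2-Eb1 (0.856 ± 0.349 CPM with roxadustat and 0.383 ± 0.201 CPM in control cells) and the invariant chain gene Cd74 (0.515 ± 0.162 CPM with roxadustat and 0.212 ± 0.0451 CPM in control cells). H2-Ab1 was therefore high in every roxadustat library while H2-Aa, H2-Eb1 and Cd74 stayed under or near 1 CPM on average. Of class I genes H2-K1 rose (212, 193, 211 and 184 CPM in roxadustat libraries, against 67.9, 74.04, 70.6 and 70.6 CPM in control libraries) and B2m, the common light chain, fell (173, 171, 166 and 155 CPM in roxadustat libraries, against 305, 322, 315 and 311 CPM in control libraries). H2-Q7, a class Ib gene with close paralogs, had 144 counts with roxadustat and 2 in control cells, a ratio of 61.6 with an exact 95% counting interval from 16.7 to 513.

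Other cell types were looked at by their markers in the same way. Endothelial markers summed to 41.1 to 49.7 CPM with roxadustat and 92.7 to 99.2 CPM in control libraries. Of 16 tested, 4 were higher and 5 lower, Flt1 among the lower, near the 24.1% and 23.6% over all genes. Flt1 alone held 19.9 CPM of the sum with roxadustat and 67.1 CPM in control cells. Lymphocyte markers stayed at 1.49 to 2.64 CPM with roxadustat and 1.78 to 2.52 CPM in control libraries (1 of 6 tested higher, 2 lower). No red cell marker of 6 tested was called by edgeR, 0 had an unadjusted p under 0.05, and 0 were called by DESeq2 or limma voom. Podocyte and parietal cell markers were higher in 3 of 9 cases and lower in 2, adipocyte markers higher in 1 of 4 and lower in 3, and nerve and glia markers higher in 1 of 6 and lower in 2. The adipocyte markers summed to 22.2 to 23.5 CPM with roxadustat and 61.0 to 64.5 CPM in control libraries. Lpl alone held 8.80 CPM of that sum with roxadustat and 43.4 CPM in control cells.

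**Figure D4:**
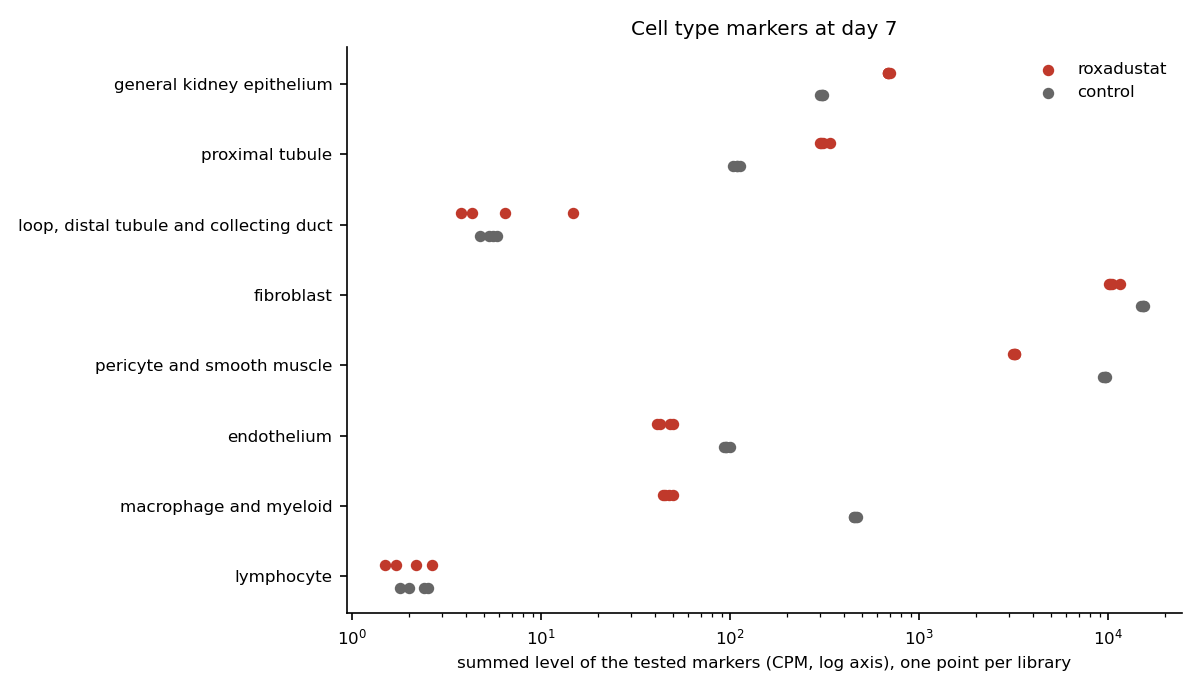
Summed CPM of 8 marker lists in each of the 8 libraries (log axis), roxadustat in red above control in grey. Macrophage markers sum to 44.3 to 49.5 CPM with roxadustat and 452 to 466 CPM in control libraries, general kidney epithelium to 680.1 to 699 and 299 to 309 CPM, and loop, distal tubule and collecting duct markers overlap because roxadustat replicate 2 reaches 14.8 CPM.

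Signalling families changed member by member. In the TGF-beta and BMP list 15 of 53 were higher and 23 lower. The ligand genes Tgfb1, Tgfb2 and Tgfb3 were all lower (-0.79, -0.68 and -1.11), and the receptor gene Tgfbr1 fell (-0.52) while Tgfbr2 rose (0.45). Bmp6, which also signals iron status, had 94.2, 93.5, 98.5 and 92.9 CPM in roxadustat libraries, against 35.1, 37.7, 36.5 and 34.6 CPM in control libraries. In the Wnt list 12 of 53 were higher and 16 lower, near the 24.1% higher and 23.6% lower over all genes. The balance became 18 and 14 with scaling by library size alone. Wnt7b (1.31), Lrp5 (1.62) and the feedback gene Axin2 (1.21) rose, and Ror2 (-1.72), Dkk2 (-0.65) and Rspo3 (-3.23) fell.

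Of growth factor genes Fgf1 had 169, 159, 162 and 159 CPM in roxadustat libraries, against 70.3, 66.2, 61.1 and 63.7 CPM in control libraries and Nrg1 81.1, 91.01, 83.04 and 95.6 CPM in roxadustat libraries, against 33.3, 30.7, 28.4 and 32.9 CPM in control libraries, and the receptor genes Erbb4 and Erbb3 were higher (1.18 and 1.09) while Egfr (-0.50), Fgfr1 (-0.63) and Fgfr2 (-1.15) were lower. Igf1 fell by 1.54 and Igfbp3, its carrier, rose by 0.92. Notch ligand and receptor genes Dll4 and Notch3 rose (1.36 and 1.15), Jag1 and Notch2 were not called (Notch2 was without roxadustat replicates 1 and 2, 0.31), and the target gene Hey1 fell (3.83 ± 0.366 CPM with roxadustat and 13.7 ± 1.21 CPM in control cells). Guidance genes were spread on both sides, 24 higher and 21 lower of 64, with Sema4d (1.82) and Sema5a (1.07) at one end and Sema3a (-1.29) and Unc5b (-0.83) at the other.

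Smaller lists were mixed. Of 32 Hox genes 12 were higher and 4 lower, all rises but that of Hoxc13 (0.92, not called without roxadustat replicates 1 and 2, 0.82) lying in the Hoxa and Hoxb groups (Hoxb6 0.64, Hoxb9 0.42, Hoxa9 0.49). Of 25 clock genes 12 were higher and 3 lower: the output gene Dbp (0.87), Per2 (0.87) and Ciart (2.12) rose, and Clock and Cry1 were not called. The hour of harvest is not given in the labels. In the hyaluronan list Cemip, which degrades hyaluronan, had 60.7, 60.04, 67.7 and 65.5 CPM in roxadustat libraries, against 16.4, 15.1, 14.8 and 17.9 CPM in control libraries, the synthase gene Has2 fell by 0.66, and 3 of 20 were higher and 10 lower. Of 24 retinoic acid genes 9 were higher and 5 lower, with rises of Crabp2 (1.47) and Aldh1a1 (1.44) and a fall of Aldh1a3 (-1.30). Of the prostaglandin genes 13 of 26 were lower (8 without roxadustat replicates 1 and 2), with prostacyclin synthase Ptgis at 14.8, 13.9, 15.9 and 14.02 CPM in roxadustat libraries, against 57.8, 60.6, 65.2 and 58.7 CPM in control libraries, and 6 higher, with Ptges, the inducible prostaglandin E synthase, at 1.57.

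The effect of roxadustat was then set against that in fresh cells of day 0 (2 roxadustat and 2 control libraries, the roxadustat ones from injected mice) and in cells of day 21 (4 and 4 libraries), with an interaction term in the same edgeR fit. Of the 18731 genes, 5418 (28.9%) had an effect at day 7 that differed from that at day 0, and 8382 (44.7%) one that differed from that at day 21. Time, dish and, at day 0, the way of treatment differ together between these groups and cannot be told apart. Slc16a3 rose by 7.00 at day 7, by 7.25 at day 21 and by 0.71 in fresh cells, a difference of 6.28 between day 7 and day 0 (edgeR adjusted p = 5.73e-17). Pdk1 showed log2 fold changes of 1.06 at day 0, 5.08 at day 7 and 3.87 at day 21. Fresh cells had 211 ± 6.04 CPM with roxadustat and 101 ± 2.34 CPM in control cells, cells of day 7 305 ± 22.8 CPM with roxadustat and 8.97 ± 0.848 CPM in control cells, and cells of day 21 247 ± 14.5 CPM with roxadustat and 16.8 ± 1.67 CPM in control cells, so control cells varied more between times than roxadustat cells.

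Other genes changed sides. Lox rose at day 7 (1.24) and in fresh cells (2.45) and fell at day 21 (-1.44), and the difference between day 7 and day 21 was 2.68 (edgeR adjusted p = 2.38e-11). Ccn3, a matricellular growth regulator, rose at day 7 (1.62) and fell at day 21 (-6.32), a difference of 7.94 (edgeR adjusted p = 4.29e-24). Col1a2 fell at day 7 (-0.92) and at day 21 (-3.65) but was higher with roxadustat in fresh cells (2.59), and the difference between day 7 and day 0 was -3.52 (edgeR adjusted p = 3.75e-09). Lrp2 and Cdh16 rose more at day 21 than at day 7, by 5.40 and 5.33 against 1.42 and 1.29 (differences of -3.98 and -4.04, edgeR adjusted p = 2.54e-20 and 2.15e-22). Mki67 went the other way, with a log2 fold change of -2.29 at day 7 and -0.43, not called, at day 21 (difference -1.86, edgeR adjusted p = 3.86e-05). Vegfa and Egln1 rose by 2.42 and 2.15 on day 7 and by 2.39 and 2.37 on day 21, with differences of 0.03 and -0.22 (edgeR adjusted p = 0.791 and 0.0127).

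**Figure D5:**
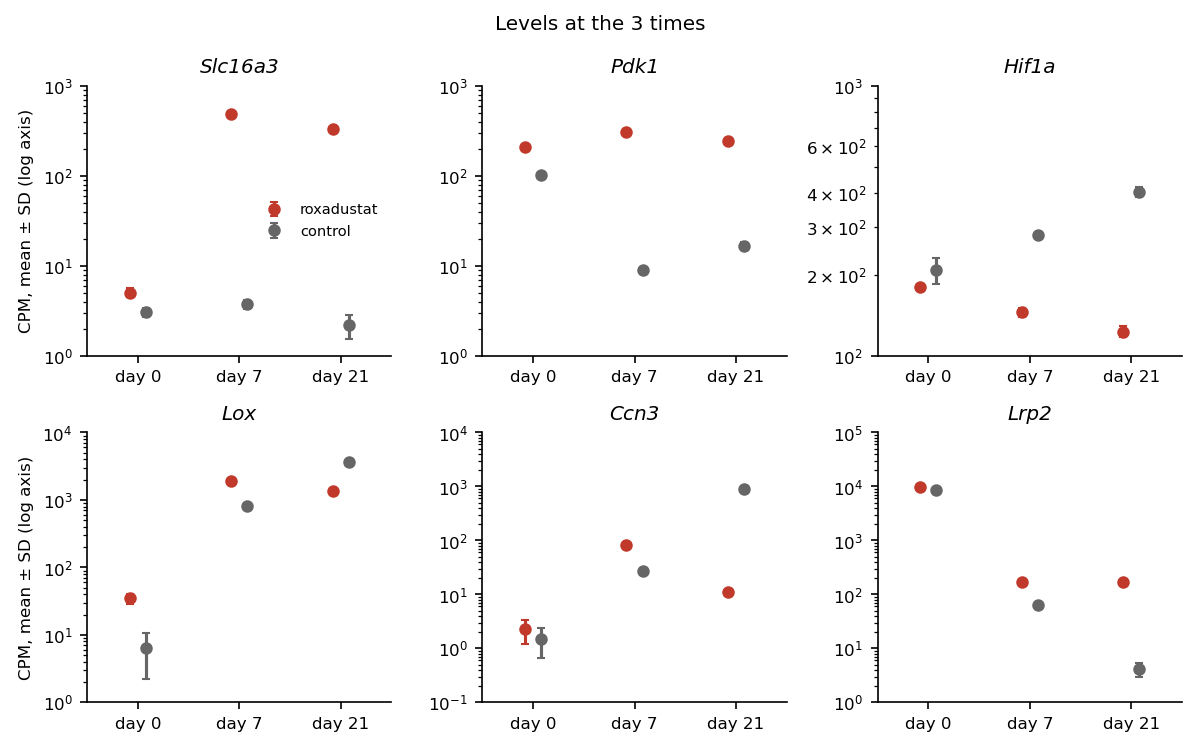
Mean CPM ± SD (log axis) of 6 genes at day 0 (n = 2 a group), day 7 and day 21 (n = 4 a group), roxadustat in red and control in grey. At day 7 Slc16a3, Pdk1, Lox, Ccn3 and Lrp2 are higher and Hif1a lower with roxadustat, and for Lox and Ccn3 the order of the groups is turned at day 21.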

How the data were processed

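The mRNA of 20 libraries was analysed, grouped by their labelled culture time and treatment. The deposited values are raw counts per gene, which the authors made with bcl2fastq, STAR 2.5.2a and featureCounts 1.5.0-p1 on mm10, per the submitters' processing notes. Libraries were not stranded, per the labels' protocols, so overlapping genes share reads, and the annotation release is not given in the sources used here. Gene symbols, positions and exon overlap came from GENCODE M21, matched for 47310 of 47729 IDs.

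Counts were fitted in edgeR 4.0.16 (R 4.3.3) with filterByExpr, TMM scaling and the robust quasi-likelihood F test, all 20 libraries sharing 1 estimate of the spread. P-values were adjusted by Benjamini-Hochberg over 18731 genes and called under 0.05. Standard errors are the log2 fold change over the root of F. A fold against a group with 1 to 3 counts is given with its exact 95% counting interval, and 3 counts is the floor for a group. Intervals cover counting error only. On simulated counts of 18191 genes, 200 of them changed, the fit recovered 73.1% of 1.5-fold, 88.1% of 2-fold and 93.9% of 4-fold changes, and 3.95% of its calls were false. The changed genes had a mean of at least 1 CPM, and counts were drawn from the fitted model. In the data 47.7% of genes were called, a setting the simulation does not cover, so its false share does not carry over to them. No pair of replicates was the same library, since their counts differed by a chi-square of at least 2.5 per gene.

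Genes were named by a rule. It took the 12 that rose and the 12 that fell most without overlap between groups. These reached 5 CPM on the higher side and 10 counts on the lower side. It also took the 5 largest each way with at most 3 counts in the lower group, and the 8 largest each way in CPM. Up to 3 each way per list, a fixed set around HIF and kidney cell identity, and 5 per contrast between times completed it. Some were left out, among them most of those picked per contrast between times. Of those, only Ccn3 is described where the effects at the times are compared. The other genes described there came from the rest of the rule. Further genes were named for their role after their values were seen. The gene lists and this rule were chosen with earlier results of these data known. Alternatives were other scalings, filters and thresholds, a replicate block, DESeq2 1.42.0, limma voom 3.58.1, the 8 libraries alone, and leaving out libraries.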

Additional observations from a re-analysis of the deposited data

Results flagged for a closer look

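Each group of 4 day 7 libraries of each gene named above was looked at for 1 library far from the other 3. Of 656 such groups, 35 held a library whose gap to its nearest neighbour, as a part of the group's range, exceeded Dixon's critical value for 4 samples, a rate near the 1 in 20 groups that chance gives. All values are CPM.

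Among roxadustat libraries, replicate 4 was the highest for Neat1 (1362), Runx2 (19.7), Slc16a7 (1.45) and Tyrobp (0.543), and the lowest for Nrp1 (998.8), Tgfbr1 (116), Pgk1 (81.3), Aldh1a3 (33.02), Cdkn2c (8.77) and Il1rn (1.40). Replicate 3 was the highest for the basement membrane gene Col4a1 (2869), Abca1 (170.2), Wnt7b (65.4) and Nrp2 (59.7), and the lowest for Mt2 (43.6) and Ccl3 (0). Replicate 1 was the highest for Tpm1 (1608), Fam162a (313.5) and Hoxc13 (1.44). Replicate 2 was the highest for Idh3a (71.04) and the lowest for Gpi1 (562.6). The 10 flags of replicate 4 and the 6 of replicate 3 make up 16 of the 21 in roxadustat libraries.

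Among control libraries, replicate 4 was the highest for Flt1 (71.02) and Col4a6 (26.2). Replicate 1 was the highest for Vldlr (85.5), Serpinb2 (8.99) and H2-Q7 (0.129), and the lowest for Ppp1r3b (7.89) and Ptprz1 (4.72). Replicate 2 was the highest for Eno3 (9.37) and the lowest for Myh9 (4649), Cs (271.5) and Tgfb2 (85.2). Replicate 3 was the highest for Tpi1 (216) and Ppp1r3g (0.0541, 1 count) and the lowest for Clock (112).

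The effect of roxadustat differed between times by the interaction term of the edgeR fit. It differed between day 7 and day 0 for 5418 genes and between day 7 and day 21 for 8382. Against day 0, the log2 effect at day 7 differed by 6.28 for the lactate exporter gene Slc16a3 and by -3.52 for Col1a2. Against day 21 it differed by 7.94 for Ccn3, 2.68 for Lox, -3.98 for the megalin gene Lrp2, -4.04 for the kidney cadherin gene Cdh16, -1.86 for Mki67 and -0.22 for Egln1.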

How the results depend on the processing

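Another scaling moved the 4507 higher and 4419 lower genes of day 7 to 4036 and 4902 with DESeq2's size factors, 5366 and 3648 with library size alone, and 4524 and 4433 with the upper quartile. The median log2 fold change of all genes was -0.01 and 0.09 with the size factors and with library size alone, beside 0.03. DESeq2 itself gave 3939 and 4827, limma voom 4491 and 4507, no filter 4375 and 4422 (34124 genes), a mean of at least 1 CPM 4140 and 4119, and a fit of the 8 libraries alone 4572 and 4901. An adjusted p under 0.01 left 3520 and 3596, and a fold of at least 2 left 1337 and 1148, with 2155 and 3584 genes in the contrasts with day 0 and day 21, by construction. Leaving out 1 library at a time gave 4108 to 4258 higher and 4046 to 4297 lower genes. The mitochondrial share then differed by -1.172 to -1.235 percentage points at an exact permutation p of 0.0571, the smallest that 3 against 4 libraries allow. Leaving out roxadustat replicates 1 and 2 together, chosen after the data were seen, left 3775 and 3861 genes and turned Kap to -3.22 and Slc34a1 to -4.25, both called lower. Of the 327 named genes, 23 changed their call under at least 1 setting. Most often these were Col1a1 and Cox4i1 (not called in the main result), and Ccnd1, Col5a2, Dlat, H2-Eb1 and Havcr1 were called in the fit of the 8 libraries alone. No pairing by replicate number was seen: deviations of same-numbered libraries correlated at 0.0045, 0.067, -0.14 and 0.12, and those of other numbers at -0.117 to 0.151. With 4 libraries a group this check cannot exclude pairing. The replicate block gave 4273 and 4214 genes (4600 and 4855 in the 8 libraries alone). Genes with few counts, such as Epo and H2-Aa, allow no small change to be detected.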
